A study of Mus musculus with 6 samples.

Results

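The 10 genes described here make and sense prostaglandins: the cyclooxygenase genes Ptgs1 and Ptgs2, the downstream synthase genes Ptgis, Ptges, Ptges2 and Ptges3, and the receptor genes Ptger1, Ptger2, Ptger4 and Ptgfr. They were taken by name from a fixed list and matched by Ensembl identifier among the 55536 genes of each library, and all 10 were found. RNA was sequenced from SVEC4-10, an immortalised mouse line labelled as endothelial. The control group held 3 libraries of cells labelled untreated, and the other group held 3 libraries of cells given nattokinase for 24 hours. The titles give the 24 hour time for the controls too, and no vehicle is named. Nattokinase is a serine protease from fermented soybeans that degrades fibrin. The labels give no dose, the cells of both groups are labelled as 1 line, and no genetic change is named. No label says whether replicates were separate cultures, so a p-value here sets a difference against the spread of 3 libraries that may be technical repeats.

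Prostaglandins are short-range lipid signals. Phospholipase A2 frees arachidonic acid from membranes, the cyclooxygenases COX-1 (Ptgs1, usually constitutive) and COX-2 (Ptgs2, usually inducible) turn it into prostaglandin H2, and terminal synthases convert that intermediate into the individual prostanoids. In blood vessels the best known product is prostacyclin, made by Ptgis, which relaxes smooth muscle and restrains platelets. The products act on G protein-coupled receptors, of which EP2 and EP4 (Ptger2, Ptger4) raise cyclic AMP, whereas EP1 and FP (Ptger1, Ptgfr) raise calcium.

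Every nattokinase library was deeper than every control, with 15044778 to 16496433 assigned reads in the controls and 17525090 to 18341370 with nattokinase. Read counts given below are not scaled for this difference. Protein-coding genes took 95.4% to 96.7% of the reads in the controls and 98.3% to 98.4% with nattokinase, and the 18S-like gene CT010467.1 took 1.85% to 2.89% and 0.525% to 0.610%. Control replicate 1 stood apart from the other libraries on the second principal component (20.3% of variance). Of 18 endothelial markers 2 reached the filter on low values, 5 (Tie1, Erg, Cldn5, Emcn and Sox17) had 0 reads in all 6 libraries, and the list summed to 6.03 to 7.22 FPKM in the controls and 8.98 to 9.62 with nattokinase. The labelled cell type therefore lacks several of its defining transcripts here. The 12 fibroblast and mural markers summed to 2068 to 2216 FPKM in the controls and 1849 to 1921 with nattokinase. Col1a1 carried most of that sum, at 1403 ± 67.3 and 1236 ± 36.2 FPKM. Only 6 of these 12 markers reached the filter. Thy1 had 0 reads in all 6 libraries, and Lum, Rgs5, Cspg4, Kcnj8 and Des were below the filter. The 6 lymphatic markers summed to 125.01 to 136 and 109.7 to 115 FPKM. The 12 leukocyte and platelet markers summed to 7.05 to 8.49 and 9.24 to 9.46 FPKM, with Ptprc at 0 reads throughout. The 7 epithelial markers summed to 6.48 to 7.87 and 7.30 to 8.92 FPKM. Among these markers, 4 genes passed the limma test. Flt1, an endothelial VEGF receptor gene, rose from 2.60 ± 0.231 to 4.84 ± 0.210 FPKM (adjusted p = 0.00033). Cd68, of the leukocyte list, rose from 1.19 ± 0.326 to 2.42 ± 0.348 FPKM (0.0094), on 16 to 63 reads per library. Elsewhere in that list Adgre1 and Itgam had 0 reads in all 6 libraries, Csf1r had 2 to 11 reads and Lyz2 had 0 to 7. Cd14 had 5.44 ± 0.590 and 5.78 ± 0.200 FPKM (limma adjusted p = 0.60). The collagen gene Col3a1 fell from 144 ± 2.62 to 95.8 ± 1.14 FPKM (7.7e-05). Pdpn, which fell from 119 ± 5.96 to 102 ± 2.66 FPKM (0.027), carried most of the lymphatic sum. Flt4, of the same list, had 11.2 ± 0.628 and 10.7 ± 0.074 FPKM (limma adjusted p = 0.54). Prox1, Lyve1, Reln and Ccl21a had 0 reads in all 6 libraries. The part of these differences in the results below was not tested, and in bulk RNA fewer cells of a type and less RNA per cell cannot be told apart.

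With nattokinase the cells held less Ptgs1 mRNA and more Ptgs2 mRNA, while the synthase genes Ptgis, Ptges2 and Ptges3 did not pass the test. The Ptgs2 call missed the threshold in 6 of 17 alternative settings, whereas the Ptgs1 call held in all 17. Levels are given in FPKM, reads per kilobase of exon scaled to the assigned reads of the library, so genes can be compared per length. A gene was tested when at least 3 libraries reached 1 FPKM, which 5 of the 10 genes did. The test was limma on log2(FPKM + 1), with Benjamini-Hochberg adjustment over 10913 genes at 0.05. It called 1 of the 5 tested genes higher and 1 lower. Among all tested genes 8.85% were called, 5.61% higher and 3.24% lower. Of those calls 63.4% were higher, or 49.0% after rescaling to protein-coding totals. The other 5 genes (Ptges and the 4 receptor genes) were too low for it. They were compared by an exact permutation test, which with 3 against 3 libraries cannot give a p below 0.10.

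**Figure D1:**
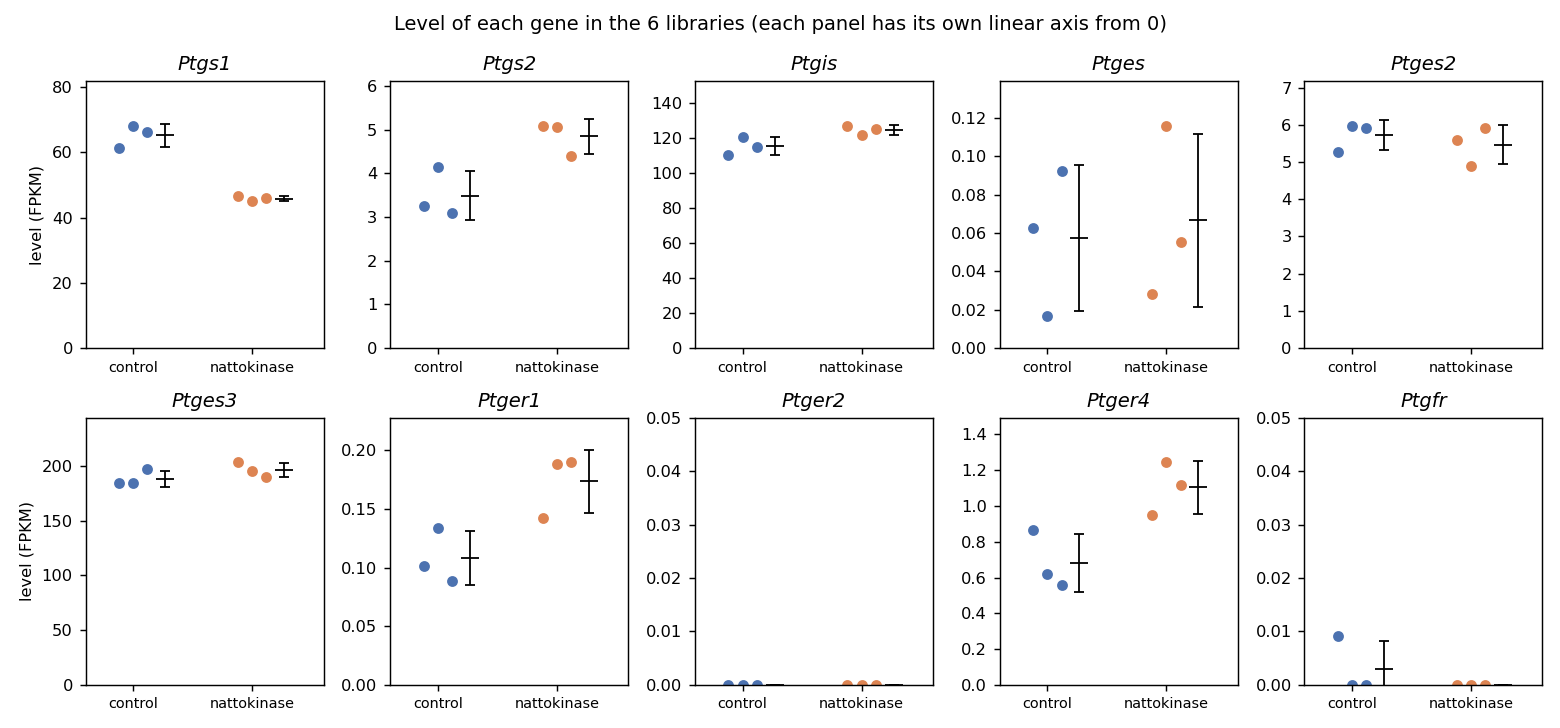
Level of each of the 10 genes in FPKM (vertical axis, linear from 0 and separate for each panel) in the 3 control and 3 nattokinase libraries. Points are libraries in the order of their replicate numbers, and bars give the mean ± SD (n = 3). All 3 nattokinase points lie below the controls for Ptgs1 and above them for Ptgs2, Ptgis, Ptger1 and Ptger4.

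Ptgs1 was the main cyclooxygenase transcript in every library and the one that fell. The gene lies on chromosome 2 (36230426 to 36252272, plus strand, GRCm38) and has 11 merged exon blocks. Ptgs1 had 61.4, 68.2 and 66.2 FPKM in the controls and 46.6, 45.03 and 45.9 FPKM with nattokinase. The 3 nattokinase libraries lay close together and well below the lowest control. The mean fell to 0.702 of the control level, from 65.3 ± 3.52 to 45.8 ± 0.765 FPKM (SD, n = 3 per group). On the log2(FPKM + 1) scale, which understates changes of low genes, the log2 fold change was −0.50 (SE 0.050, 95% interval −0.61 to −0.39, limma adjusted p = 0.00033). The call held in all 17 alternative settings, with limma adjusted p between 9.7e-08 and 0.011. When FPKM were rescaled to equal protein-coding totals, which removes the difference in non-coding reads given above, the log2 fold change was −0.53.

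Ptgs2 was far lower than Ptgs1 and moved the other way. It lies on chromosome 1 (150100031 to 150108227, plus strand). Ptgs2 had 3.26, 4.14 and 3.08 FPKM in the controls and 5.10, 5.07 and 4.39 FPKM with nattokinase, which rests on 233 to 421 reads per library. The lowest nattokinase library was only slightly above control replicate 2, the highest control. The nattokinase mean of 4.85 ± 0.399 FPKM was 1.39-fold the control mean of 3.49 ± 0.564 FPKM (log2 fold change 0.39, SE 0.093, 95% interval 0.18 to 0.59, limma adjusted p = 0.031). This call rested on single libraries: the limma adjusted p was 0.068 without control replicate 1, 0.093 without control replicate 3, and 0.11 without nattokinase replicate 1 or 2. It was also lost without the filter on low values (0.18) and with a plain prior (0.056), and it was 0.0031 with limma-voom on the reads recovered from the FPKM and 0.044 after rescaling to protein-coding totals.

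**Figure D2:**
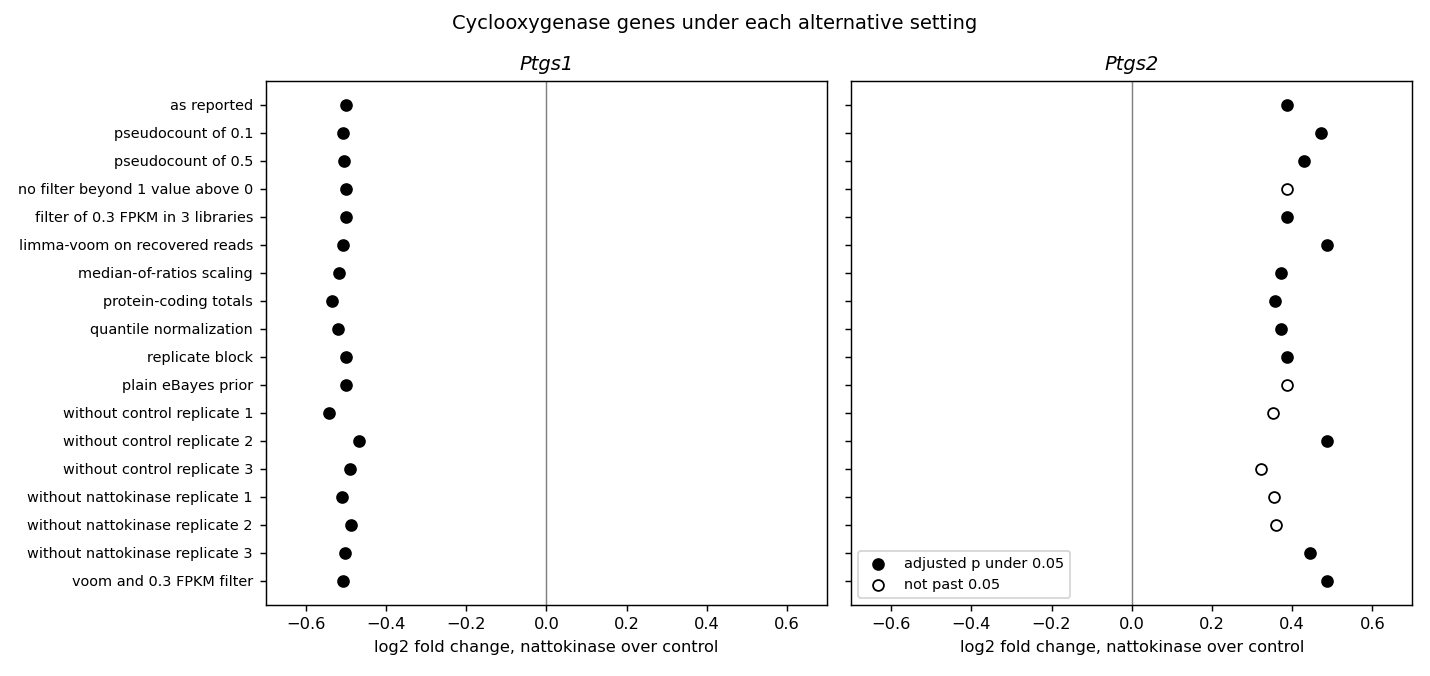
Log2 fold change of Ptgs1 and Ptgs2 (horizontal axis, nattokinase over control) under the reported setting and 17 alternatives (rows). Filled points passed an adjusted p of 0.05 and open points did not: Ptgs1 passed under every alternative shown, between −0.54 and −0.47, whereas Ptgs2 stayed positive between 0.32 and 0.49 and missed the threshold in 6.

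Because both transcripts are measured per length, their balance can be read within a library. Ptgs2 made up 5.04%, 5.71% and 4.45% of the summed FPKM of Ptgs1 and Ptgs2 in the controls, and 9.87%, 10.1% and 8.73% with nattokinase. The share was higher in each nattokinase library than in any control. The sum of the levels went the other way, from 68.8 ± 3.89 FPKM in the controls to 50.7 ± 0.836 FPKM with nattokinase (SD, n = 3 per group), since Ptgs1 supplied most of it. These combined values are a description and were not tested, as each rests on the transcripts tested above.

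**Figure D3:**
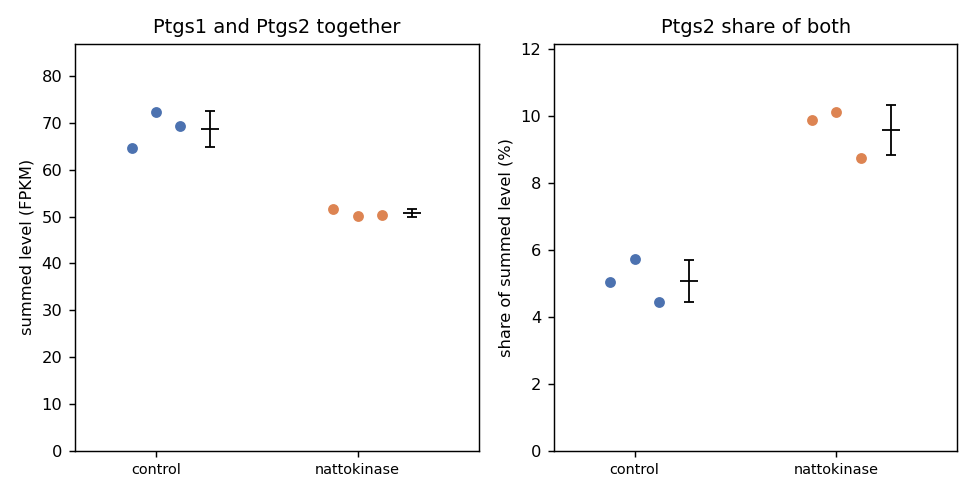
Summed level of Ptgs1 and Ptgs2 in FPKM (left) and the share of that sum from Ptgs2 in percent (right) in the 3 control and 3 nattokinase libraries, with mean ± SD (n = 3). The sum lies between 64.7 and 72.4 FPKM in controls and between 50.1 and 51.6 FPKM with nattokinase, and the Ptgs2 share lies between 4.45% and 5.71% and between 8.73% and 10.1%.

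The promoter windows of Ptgs1 and Ptgs2 are shown because these are the genes of the list that passed the test, and in opposite directions. Each runs from 250 bases before to 50 bases after the annotated start, on the coding strand, from RefSeq (GRCm38.p6), which held a window for 8 of the 10 genes, all but Ptgis and Ptger1. Capitals mark matches, on either strand, to 6 short words. The half-site of the cyclic AMP response element was searched as ACGTCA, and the E-box, a site of basic helix-loop-helix factors, as CACGTG. The site of the C/EBP factors was searched as TTGCNNAA and the GC box, a site of Sp factors, as GGGCGG. The basal promoter word of the TBP protein was searched as TATAAA, and the word of the NF-Y factor as CCAAT. The Ptgs1 window is chr2:36230176-36230475 and the Ptgs2 window is chr1:150099781-150100080.
Ptgs1: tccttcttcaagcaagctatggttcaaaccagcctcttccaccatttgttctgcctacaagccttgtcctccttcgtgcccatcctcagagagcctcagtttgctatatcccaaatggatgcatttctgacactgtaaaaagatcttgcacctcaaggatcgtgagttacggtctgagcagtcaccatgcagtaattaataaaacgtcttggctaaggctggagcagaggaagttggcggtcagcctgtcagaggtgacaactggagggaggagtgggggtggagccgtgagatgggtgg
Ptgs2: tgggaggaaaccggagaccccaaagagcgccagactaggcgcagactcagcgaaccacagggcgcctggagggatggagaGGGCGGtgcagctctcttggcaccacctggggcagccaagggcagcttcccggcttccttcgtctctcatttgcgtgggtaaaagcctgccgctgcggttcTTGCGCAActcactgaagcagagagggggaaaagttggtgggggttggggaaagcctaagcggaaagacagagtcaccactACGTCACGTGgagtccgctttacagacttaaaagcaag

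The Ptgs2 window holds 1 GC box, 1 C/EBP match (TTGCGCAA, from base 182 of the window), and a half-site and an E-box that overlap at bases 267 and 268, just after the annotated start. The Ptgs1 window holds 0 matches to these 6 words. Among 32851 windows of the same length, 7.5% hold the half-site, 7.2% the E-box, 10.8% the C/EBP word, 35.7% the GC box, 13.6% the TBP word and 37.4% the NF-Y word. The windows also differ in composition: Ptgs2 has 59.3% G and C with 16 CpG, and Ptgs1 has 50.7% with 6 CpG, against medians of 52.7% and 7 over all windows. Of the other genes with a window, Ptges3 has 46 CpG and 4 GC boxes, and Ptger4 has 25 CpG, 4 GC boxes and 1 NF-Y word. Ptges2 has 18 CpG and 1 E-box, Ptgfr has 11 CpG and 2 GC boxes, Ptges has 10 CpG and 2 GC boxes, and Ptger2 has 3 CpG, 1 C/EBP word and 1 NF-Y word. These matches describe letters and are not measurements of binding.

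Among the terminal synthase genes, prostacyclin synthase and the p23 gene were abundant and the inducible prostaglandin E synthase was almost absent. Ptgis (chromosome 2, 167191805 to 167240604, minus strand), which encodes prostacyclin synthase, had 110.3, 121 and 115 FPKM in the controls and 127, 122 and 125 FPKM with nattokinase. Every nattokinase library was above every control, but by less than 1 FPKM at the closest pair. The group means were 115 ± 5.33 and 125 ± 2.89 FPKM (log2 fold change 0.11, SE 0.050, 95% interval 0.00012 to 0.22, limma adjusted p = 0.22). Groups that do not overlap were seen for 28.8% of all tested genes, and for 3 of the 5 genes tested here, Ptgs1, Ptgs2 and Ptgis. Relative to the summed cyclooxygenase transcripts, Ptgis stood at 1.71, 1.67 and 1.66 in the controls and at 2.46, 2.43 and 2.49 with nattokinase, a ratio that carries the fall of Ptgs1.

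Ptges3, which encodes p23, a co-chaperone of HSP90 also described as the cytosolic prostaglandin E synthase, had the highest level of the 10 genes. It had 184.1, 184.4 and 197 FPKM in the controls and 203, 195 and 190.1 FPKM with nattokinase, with overlapping groups (chromosome 10, 128058954 to 128077272; log2 fold change 0.06, 95% interval −0.06 to 0.17, limma adjusted p = 0.55). Of its transcript words of 50 bases 19.6% also occur in other genes, mainly in the pseudogene Ptges3-ps. How reads from such words were counted is not stated, so the size of the effect on the Ptges3 level is not known. Ptges2, the membrane-associated synthase mPGES-2, had 5.27, 5.98 and 5.92 FPKM in the controls and 5.601, 4.90 and 5.91 FPKM with nattokinase (chromosome 2, 32395896 to 32405772; log2 fold change −0.06, 95% interval −0.22 to 0.11, limma adjusted p = 0.71). Its groups overlapped almost wholly. The intervals reach 0.22 for Ptgis and −0.22 for Ptges2 on the log2 scale, so equal levels are not shown.

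Ptges, which encodes mPGES-1, the inducible enzyme usually coupled to COX-2, was barely detected. It had 4, 1 and 6 reads in the controls and 2, 8 and 4 reads with nattokinase, equal to 0.017 to 0.093 and 0.028 to 0.12 FPKM (chromosome 2, 30889471 to 30929863, minus strand). The groups overlapped (exact permutation test, two-sided p = 0.8), and a difference was not detectable at this depth, where 3 reads correspond to 0.042 to 0.051 FPKM. Ptgs1, Ptgis, Ptges and Ptges2 all lie on chromosome 2. Of these 4 genes 1 fell, and the others did not pass or could not enter the test.

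Of the receptor genes Ptger4 was the only one with more than 19 reads in any library. Ptger4 (chromosome 15, 5206661 to 5244187, minus strand), the gene of the cyclic AMP-raising receptor EP4, had 0.863, 0.620 and 0.556 FPKM in the controls and 0.951, 1.24 and 1.12 FPKM with nattokinase. These values stand for 93, 62 and 61 reads against 114, 145 and 136. All nattokinase libraries were above all controls, although nattokinase replicate 1 was close to control replicate 1. The mean was 1.62-fold the control level, 0.680 ± 0.162 against 1.10 ± 0.147 FPKM (exact permutation test, two-sided p = 0.1, the smallest that 3 against 3 libraries can give). Only 2 libraries reached 1 FPKM. With a filter of 0.3 FPKM it entered the limma fit, with an adjusted p of 0.10. Limma-voom on the recovered reads with that same filter, chosen after seeing the data, gave a log2 fold change of 0.71 and an adjusted p of 0.0081. The log2 difference without that model was 0.33 with a pseudocount of 1, 0.45 with 0.5 and 0.64 with 0.1, so its size depends on the scale. Exons of Ttc33 and Gm15937 overlap 1.23% and 15.3% of the Ptger4 exons. Gm15937 had 0 reads throughout, and Ttc33 had 9.65 to 10.2 FPKM in the controls and 10.1 to 10.7 FPKM with nattokinase. How reads in the shared exon bases were counted is not stated, so the effect on the Ptger4 level is not known.

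Ptger1, the gene of the calcium-coupled receptor EP1, had 9, 11 and 8 reads in the controls and 14, 18 and 19 with nattokinase, or 0.108 ± 0.023 and 0.173 ± 0.027 FPKM (SD, n = 3 per group; exact permutation test, two-sided p = 0.1). The groups did not overlap, but with so few reads and no stated use of strand, the assignment of these reads to Ptger1 is uncertain, and no difference is read from them. Ptger2, the gene of the other cyclic AMP-raising receptor EP2, had 0 reads in all 6 libraries (chromosome 14, 44988195 to 45003820), which allows up to 3 reads, or 0.0315 to 0.0384 FPKM, for counting error only. Ptgfr, the gene of the prostaglandin F2α receptor FP, had 1 read in control replicate 1 and 0 in the other libraries (chromosome 3, 151796502 to 151837630).

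The order of levels in the controls was Ptges3, Ptgis, Ptgs1, Ptges2, Ptgs2, Ptger4, Ptger1, Ptges, then Ptgfr and Ptger2. The ranges of neighbours did not overlap in the upper part of this order, down to Ptger4 and Ptger1. Ptger1 overlapped with Ptges, and Ptgfr with Ptger2. The place of Ptger1 rests on reads whose assignment is uncertain. With nattokinase the order was kept down to Ptges, but Ptges2 (4.90 to 5.91 FPKM) and Ptgs2 (4.39 to 5.10 FPKM) overlapped. Over the 6 libraries the mean of Ptges3 was above that of 98.3% of the tested genes, that of Ptgis above 97.2%, that of Ptgs1 above 92.6%, that of Ptges2 above 37.9% and that of Ptgs2 above 29.1%.

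The remaining prostanoid receptor genes were low as well. Ptgir, which encodes the prostacyclin receptor IP and so reads out the product of Ptgis, had 48 to 78 reads per library and 1.05 ± 0.174 FPKM in the controls against 1.24 ± 0.060 with nattokinase (SD, n = 3 per group; limma log2 fold change 0.13, adjusted p = 0.46). Ptger3, the gene of the fourth PGE2 receptor EP3, had at most 1 read, and Tbxa2r, the thromboxane receptor gene, had 1 to 10 reads. Ptgfrn, which encodes a partner protein of the FP receptor, had 6.86 ± 0.232 and 7.34 ± 0.257 FPKM (limma adjusted p = 0.40). In this list 2 of 6 genes were tested and 0 were called by limma, with 0 at an unadjusted p under 0.05 and 0 called by limma-voom.

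Upstream of the cyclooxygenases, 10 of 23 listed genes of arachidonate release and activation were tested, 1 fell and 0 rose. Over all tested genes 3.24% were called lower and 5.61% higher. The median log2 fold change of the list was −0.02 beside 0.01 over all tested genes. The gene that fell was Lpcat3, which loads arachidonate back into phospholipids, from 24.4 ± 1.46 to 20.8 ± 0.714 FPKM (log2 fold change −0.22, limma adjusted p = 0.034). Lpcat3 missed the threshold when control replicate 2 or any nattokinase library was left out (limma adjusted p 0.060 to 0.12). It was also missed without the filter on low values (0.16) and with a plain prior (0.072). Pla2g4a, the cytosolic phospholipase A2 that feeds the cyclooxygenases, named outside the rule for its role, had 8.63 ± 0.894 and 9.73 ± 0.756 FPKM (limma adjusted p = 0.27).

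Other branches of the pathway had 0 calls by limma and 0 by limma-voom. Of 10 other terminal synthase genes 5 were tested and 2 had an unadjusted limma p under 0.05, beside 0 of 6 and 0 of 3 in the branches described next. The smallest p-values in the synthase list belonged to the carbonyl reductase genes Cbr3, at 6.50 ± 0.799 and 5.31 ± 0.262 FPKM (limma adjusted p = 0.098, or 0.013 without control replicate 1), and Cbr2, at 3.71 ± 0.409 and 4.98 ± 1.07 FPKM (limma adjusted p = 0.15). Ptgds, the lipocalin-type prostaglandin D synthase gene, had 0 reads in all 6 libraries. Of 8 genes of transport and breakdown 6 were tested with a median log2 fold change near 0. Ptgr1, which encodes a reductase that inactivates prostaglandins, had 14.4 ± 0.981 and 13.5 ± 0.693 FPKM, and Zadh2 had 7.97 ± 0.368 and 8.32 ± 0.056 FPKM (limma adjusted p = 0.49 and 0.59). Hpgd, the main prostaglandin-degrading dehydrogenase gene, had 0 reads in all 6 libraries. In the lipoxygenase branch 3 of 15 genes were tested, among them the leukotriene A4 hydrolase gene Lta4h at 24.7 ± 1.23 and 23.5 ± 0.320 FPKM and the leukotriene receptor gene Cysltr1 at 1.14 ± 0.032 and 0.944 ± 0.115 FPKM (limma adjusted p = 0.46 and 0.37).

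Below the receptors, 25 of 35 listed genes of cyclic AMP and calcium signalling were tested, 3 rose and 0 fell. The median log2 fold change was 0.05. Over all tested genes 5.61% were called higher and 3.24% lower, and the list was not tested as a set. Prkar2b, which encodes a regulatory subunit of protein kinase A, had 8.44 ± 0.853 FPKM in the controls and rose to 14.3 ± 0.315, a 1.69-fold difference (log2 fold change 0.70, SE 0.068, limma adjusted p = 0.00032). Gnai1, the gene of an inhibitory G protein subunit that lowers cyclic AMP, had 11.1 ± 0.555 FPKM and rose to 15.5 ± 0.962, a 1.39-fold difference (limma adjusted p = 0.0018). Both calls held in all 17 alternatives. Prkar2a, a related regulatory subunit gene, rose by less, from 20.4 ± 0.383 to 23.1 ± 0.127 FPKM (log2 fold change 0.17, limma adjusted p = 0.036). Prkar2a missed the threshold in 11 of the 17 alternatives. These were any single library left out except control replicate 1 (limma adjusted p 0.078 to 0.13) and each of the 3 rescalings (0.057 to 0.083). The others were no filter on low values (0.11), the replicate block (0.11) and a plain prior (0.068).

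Of 20 listed regulators of the Ptgs2 and Ptges transcripts all 20 were tested, 4 rose and 0 fell, with a median log2 fold change of 0.07. Over all tested genes 5.61% were called higher and 3.24% lower, and the list was not tested as a set. In this list 6 genes had an unadjusted limma p under 0.05, and 6 were called by limma-voom. Egr1, a transcription factor known to activate Ptges, had 34.8 ± 1.99 FPKM and rose to 51.1 ± 1.99, a 1.47-fold difference (limma adjusted p = 0.00033), while Ptges itself stayed at 1 to 8 reads. Zfp36l1 and Zfp36 encode proteins that bind AU-rich elements and promote decay of messages such as that of Ptgs2. Zfp36l1 rose from 17.6 ± 0.887 to 22.4 ± 0.479 FPKM (limma adjusted p = 0.0030), and Zfp36 from 16.3 ± 0.809 to 19.3 ± 1.12 FPKM (0.034). Hnrnpd, another AU-rich element binder, rose from 26.7 ± 0.514 to 30.3 ± 1.28 FPKM (limma adjusted p = 0.047). Zfp36 missed the threshold when either control replicate 1, control replicate 3, nattokinase replicate 2 or nattokinase replicate 3 was left out (limma adjusted p 0.061 to 0.13). In all, Zfp36 missed it in 9 of the 17 alternatives (limma adjusted p up to 0.17), among them rescaling to protein-coding totals (0.060). Hnrnpd missed it in 12 of the 17 alternatives, among them every single library left out except control replicate 1 (0.070 to 0.20) and the 3 rescalings (0.072 to 0.10). Over the 7 pathway lists together 7 of 71 tested genes rose and 1 fell, 11.3% called beside 8.85% of all tested genes. The number that rose was 4 without control replicate 3 or nattokinase replicate 3, and the number that fell was 0 without control replicate 2 or nattokinase replicate 2 or 3 and 3 without control replicate 1.

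**Figure D4:**
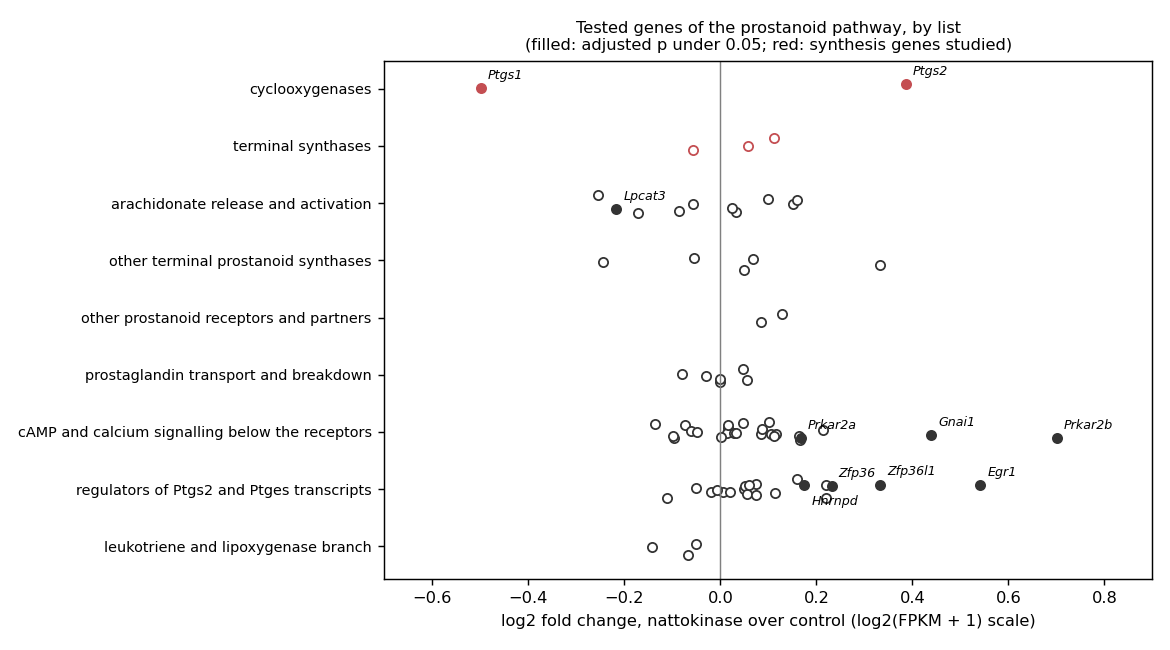
Log2 fold change (horizontal axis, nattokinase over control on the log2(FPKM + 1) scale) of every tested gene in the cyclooxygenase, synthase and 7 further pathway lists (rows, with random vertical offset). Filled points passed a limma adjusted p of 0.05: Ptgs1 and Lpcat3 on the lower side, and Ptgs2, Prkar2b, Gnai1, Prkar2a, Egr1, Zfp36l1, Zfp36 and Hnrnpd on the higher side.

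The genes whose profile over the 6 libraries was most like that of each cyclooxygenase gene were found by the root mean square difference of log2(FPKM + 1) after subtracting each gene's control mean, over 9890 protein-coding genes. Closest to Ptgs1 were the mevalonate kinase gene Mvk (0.042), Selenoh (0.048) and the stress-inducible gene Gadd45a (0.049), against a median of 0.371 over all genes compared. Mvk had 15.1, 16.5 and 16.2 FPKM in the controls and 12.02, 10.8 and 10.9 FPKM with nattokinase. Closest to Ptgs2 were the tetraspanin gene Tspan2 (0.070), Tmem41a (0.072) and Fam110c (0.082), against a median of 0.299. Tspan2 had 1.21, 1.40 and 1.08 FPKM in the controls and 1.90, 2.004 and 1.89 FPKM with nattokinase. These genes were chosen for their likeness over the same libraries, so their own differences between the groups are not separate evidence.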

How the data were processed

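The authors deposited 1 file per library with FPKM for 55536 Ensembl genes. That the deposited values are FPKM was found from the values: multiplied by merged exon length in GENCODE M21 (GRCm38), 100% of values above 0 were within 0.05 of a whole number of reads. Per the submitters' processing notes the tools were, in no stated role, featureCounts 1.6.0, HISAT2 2.1.0, DESeq2 1.22.1 and Trimmomatic 0.38, and the build named there is GRCh38, although the identifiers are mouse. No source used here says whether counting used strand.

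Values were analysed as log2(FPKM + 1) with limma 3.58.1 in R 4.3.3 (group as the only term, trend and robust prior, two-sided), keeping genes that reached 1 FPKM in 3 or more libraries. Because the deposited values are FPKM, limma-voom on the recovered reads served only as an alternative. Genes under the filter were compared by exact permutation. A limit for 0 reads is 3 reads and covers counting error only. The script was tested on simulated data. A result that bears on the level of Ptger1 is not reported here.

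The genes and lists were chosen with earlier results of these data known, and no p-value was adjusted over a list alone. All 10 genes are named. Of each other list the text names each called gene, or, with none called, the 2 with the smallest p, plus Ptgir, Ptger3 and Tbxa2r. Pla2g4a, Ptgds, Hpgd, Gnas, Gnai2, Tbxas1, Slco2a1 and the marker genes were named outside this rule, after their values were seen. Of 183 listed names 1 had no match. Alternatives were pseudocounts, filters, rescalings, limma-voom, a plain prior, a replicate block and leaving out each library.

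Replicates of a group had correlations of 0.992 to 0.995 and a mean chi-square per gene of 2.56 to 12.2, more than counting error gives. Figures were drawn with matplotlib 3.10.9.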

Additional observations from a re-analysis of the deposited data

How the results depend on the processing

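Ptgs1 kept its direction and its call in all 17 alternatives, and the log2 fold change without 1 library ran from −0.54 to −0.47. Ptgs2 kept its direction in all 17 and its call in 11. Its log2 fold change was 0.39 without the filter on low values (adjusted p = 0.18) and 0.39 with a plain prior (0.056), and ran from 0.32 to 0.49 without 1 library. Ptger4 was higher in all 14 settings that gave a value (0.33 as reported, 0.27 to 0.40 without 1 library, 0.45 and 0.64 with pseudocounts of 0.5 and 0.1) and passed only with limma-voom and a filter of 0.3 FPKM, at 0.71, a choice added after seeing the data. Ptgis and Ptges3 kept their sign in all 17 with no call. Ptges2 ran from −0.11 to 0.0080 without 1 library and Ptges from −0.021 to 0.038, so their signs turned. Over all genes 966 calls became 330 without the filter (221 higher, 109 lower), where more genes were tested, and 528 to 1207 without 1 library (330 to 726 higher, 193 to 481 lower). Leaving out control replicate 2 gave 555 calls and control replicate 3 gave 624. Leaving out nattokinase replicate 2 gave 528 and nattokinase replicate 3 gave 539. Limma-voom on the recovered reads called 1334. Rescaling to protein-coding totals gave 478 higher and 497 lower calls, a 49.0% share of higher ones beside 63.4%. Of the other pathway genes 4 were higher and 0 lower without the filter and with a plain prior, 11 and 2 with limma-voom under either filter, 4 were higher with protein-coding totals, and 2 were lower with the replicate block. Without 1 library 4 to 7 were higher and 0 to 3 lower. Replicate numbers did not pair the samples (correlations of −0.089, −0.044 and −0.059 between same-numbered libraries, and 0 of 6 libraries correlated best with their own number). With the replicate block 688 genes were called, Ptgs1 had −0.50 (adjusted p = 0.0017) and Ptgs2 0.39 (0.020). Depth limits Ptges, Ptger1, Ptger2 and Ptgfr, which had at most 19 reads per library. For Ptger1 the assignment of the reads is uncertain as well.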

Other observations

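Gnas, the gene of the G protein subunit through which EP2 and EP4 raise cyclic AMP, was listed at an unusually low level beside the other G protein genes, a value singled out after it was seen. It had 67 to 82 reads and 0.423 ± 0.062 FPKM in the controls, and 111 to 164 reads and 0.696 ± 0.119 FPKM with nattokinase (SD, n = 3 per group; exact permutation test, two-sided p = 0.1). Gnai2, which encodes an inhibitory subunit, had 134 to 150.4 FPKM over the 6 libraries. Exons of the genes Nespas and Gm20721 overlap 2457 of the 11186 exon bases of Gnas. Whether the listed value reflects the expression of Gnas, and how reads were assigned at this locus, was not tested.

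Tbxas1, the thromboxane synthase gene, also singled out after its values were seen, had 0.043 ± 0.034 FPKM in the controls and 0.149 ± 0.041 FPKM with nattokinase, on 2 to 32 reads per library. Slco2a1, which encodes a prostaglandin uptake transporter, had 0.098 ± 0.018 and 0.052 ± 0.020 FPKM on 7 to 25 reads. Both were below the filter on low values and were compared only by the exact permutation test (two-sided p = 0.1 for each), and their groups did not overlap.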
